A study of Mus musculus with 2 samples.

Results

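Of the 5650 differentially accessible regions (DARs) that the authors listed between MR + vector and MR + iBRD9 cells, 440 covered a transcription start site (TSS). These were the regions whose annotation class was a promoter and whose listed distance to the TSS was 0, which puts the start of the listed transcript inside the region. They comprised 247 gain DARs, more accessible with iBRD9, and 193 loss DARs, less accessible with iBRD9, and each belonged to a different gene. The cells were bone marrow-derived monocytes (BMDMs) from the tibias and femurs of C57BL/6 mice, which become osteoclasts, the cells that resorb bone. The study's methods differ from these labels in naming C57BL/6J mice and femurs alone. Both groups received M-CSF at 50 ng/ml and RANKL at 100 ng/ml, and the MR + iBRD9 group also received iBRD9, an inhibitor of BRD9, in place of the vehicle. Each group is 1 ATAC-seq library made from 5000 cells, so every contrast below compares 2 single libraries, without a replicate check or a p-value. The deposited tables give positions, widths, directions and the nearest transcript but no reads, signal or fold change, so the depth behind a region is unknown and regions could not be ordered by strength.

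A promoter is the stretch of DNA around a TSS where general factors place RNA polymerase II, and in active genes it lies open between flanking nucleosomes. Many mammalian promoters lie in CpG islands, stretches that keep their CG dinucleotides because they are not methylated, and these often belong to genes used in most cells, while promoters poor in CpG are more often tied to a tissue or a signal. BRD9 is a bromodomain subunit of the non-canonical BAF complex, which moves nucleosomes with the energy of ATP.

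The gain share hardly differed between these regions and the rest, and the sequence under gain and loss regions differed. Gain DARs made up 56.1% of the 440 regions (95% Wilson interval 51.5% to 60.7%), beside 55.9% of all DARs, and loss DARs the remainder, beside 44.1% of all DARs. Of the gain DARs 78.5% were CpG-rich, against 61.7% of the loss DARs. Intervals here cover counting error alone, treat each region as independent and describe these 2 libraries.

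The sequences of 8 regions at genes named in the lists below are shown first, because these genes stand for the groups that the list counts describe. Each is read from GRCm39 5′ to 3′ on the strand of the listed transcript. Stretches were chosen inside each DAR as the longest one, up to 300 bases, with at most 30 bases of annotated untranslated region. Some are therefore much shorter than the DAR. Capitals mark the short motifs that are spelled out further on. Selenoi, ethanolaminephosphotransferase 1, had a gain DAR of 327 bp, from which chr5:30437306-30437605 (plus strand) is printed. Chkb, choline kinase beta, had a gain DAR of 150 bp, printed whole as chr15:89313582-89313731 (minus strand). Pisd, phosphatidylserine decarboxylase, had a gain DAR of 450 bp, from which chr5:32942792-32942922 (minus strand) is printed. Pemt, phosphatidylethanolamine N-methyltransferase, had a loss DAR of 217 bp, from which chr11:59937340-59937525 (minus strand) is printed. Casp8, the initiator caspase of death receptor signalling, had a loss DAR of 218 bp, from which chr1:58841568-58841681 (plus strand) is printed. Drd1, a dopamine receptor, had a loss DAR of 150 bp, from which chr13:54209731-54209825 (minus strand) is printed. Gbp2, an interferon-induced GTPase, had a loss DAR of 171 bp, from which chr3:142326372-142326401 (plus strand) is printed. Spi1, the gene of the myeloid factor PU.1, had a gain DAR of 218 bp, from which chr2:90927002-90927031 (plus strand) is printed.
Selenoi: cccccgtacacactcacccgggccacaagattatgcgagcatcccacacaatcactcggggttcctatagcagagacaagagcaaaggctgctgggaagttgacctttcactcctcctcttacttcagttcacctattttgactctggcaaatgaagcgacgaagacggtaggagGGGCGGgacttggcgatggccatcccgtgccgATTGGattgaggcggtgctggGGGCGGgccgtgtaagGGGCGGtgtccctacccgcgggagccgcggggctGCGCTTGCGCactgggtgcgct
Chkb: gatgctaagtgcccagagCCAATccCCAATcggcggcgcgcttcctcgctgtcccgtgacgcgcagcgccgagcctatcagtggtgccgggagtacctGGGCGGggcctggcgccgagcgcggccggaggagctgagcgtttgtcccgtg
Pisd: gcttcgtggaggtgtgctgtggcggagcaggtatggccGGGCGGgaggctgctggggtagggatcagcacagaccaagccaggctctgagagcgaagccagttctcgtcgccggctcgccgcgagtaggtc
Pemt: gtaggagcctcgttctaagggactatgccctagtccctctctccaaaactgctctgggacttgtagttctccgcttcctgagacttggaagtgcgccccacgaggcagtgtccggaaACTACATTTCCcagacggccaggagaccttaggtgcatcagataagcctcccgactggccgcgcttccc
Casp8: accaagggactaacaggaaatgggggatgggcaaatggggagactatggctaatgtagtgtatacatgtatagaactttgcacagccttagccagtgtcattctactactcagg
Drd1: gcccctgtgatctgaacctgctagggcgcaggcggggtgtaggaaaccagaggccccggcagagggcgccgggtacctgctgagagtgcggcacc
Gbp2: ttcactgtcttaagcataaataaagagcga
Spi1: gccagagacttcctgtagcgcaagagattt

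The stretches differ in what they hold. The Selenoi stretch carried 3 GC boxes, 1 CCAAT box and 1 NRF1 site, and the Chkb stretch 2 CCAAT boxes and 1 GC box. Pemt carried 1 ZNF143 site. None of the 14 motifs searched lay in the stretches of Casp8, Drd1, Gbp2 or Spi1, of which those of Gbp2 and Spi1 are only 30 bases long. Over the whole DAR, Spi1 had 1 GC box, at -76 bp from the TSS, and the other three had no match. Over the whole DAR, the CpG ratio, that is the number of CG dinucleotides over the number expected from the C and G content, was 1.02 at Chkb, 0.899 at Selenoi, 0.891 at Pisd, 0.714 at Drd1 and 0.620 at Pemt. The ratio was 0.425 at Spi1, 0.204 at Gbp2 and 0 at Casp8, whose 218 bp held no CG.

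The covered TSS was not always the one that defines the gene. In GENCODE M39, the annotation used here, 1 transcript of each gene is marked canonical, and the canonical TSS lay inside 296 of the 440 regions (67.3%, 62.8% to 71.5%). The shares were 68.8% of gain and 65.3% of loss DARs. In the 142 regions that missed a known canonical TSS, the listed TSS lay a median of 498 bp from it, and more than 1 kb in 50. The canonical TSS was upstream of the listed one in 112 of the 142. At Casp8, the covered start lay 7284 bp downstream of the canonical TSS, at Spi1 684 bp and at Chkb 460 bp downstream. The canonical TSS of Pisd was 39273 bp and that of Pemt 9484 bp further downstream than the covered start. Selenoi was covered at its canonical TSS itself. The covered start of Smarcd2, a BAF subunit gene, lay 5223 bp from the canonical one and that of Xrcc3, a recombination repair factor, 3911 bp.

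The authors annotated with another release than M39. Of the 440 listed transcripts 438 are in M39, 229 of them with their start at the same base, so the listed starts were kept for all distances. In M39, 431 of the regions still held a start of their own gene. At the edge of the definition, 15 regions held the TSS within 5 bp of an end, and at Kpna1, an importin gene, the TSS was the last base of a gain DAR of 386 bp. Just outside were 5 promoter DARs that ended 1 bp upstream of the TSS, among them loss DARs at Myom2 (258 bp), Rab11fip1 (246 bp) and Bicd2 (221 bp).

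Most of the genes code for proteins. There were 399 protein-coding genes (90.7%), 29 long noncoding RNA genes, 5 pseudogenes, 4 genes marked as to be experimentally tested, 1 small nucleolar RNA gene and 2 genes not in M39. Protein-coding genes made up 90.7% of both the gain and the loss DARs. Over all 21770 protein-coding genes of M39, 1.03% had a gain DAR and 0.804% a loss DAR covering a TSS.

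Many of the promoters lay between genes of opposite strands. A TSS of another gene on the opposite strand lay within 1 kb upstream for 157 regions (35.7%, 31.3% to 40.3%), at a median of 78.0 bp. The share among protein-coding members, 35.8% (31.3% to 40.7%), was above the 23.7% of all protein-coding canonical TSSs. It was 36.4% in gain and 34.7% in loss DARs. The nearest such gene was a long noncoding RNA gene for 51 gain and 39 loss DARs. Pairs of 2 protein-coding genes made up 13.0% of gain DARs (9.33% to 17.7%) and 9.33% of loss DARs (5.98% to 14.3%), so that the intervals overlapped. Among protein-coding members the shares were 14.3% (10.3% to 19.5%) and 10.3% (6.61% to 15.7%). Of all protein-coding canonical TSSs 8.81% had such a pair, which the interval of the loss DARs holds. Examples from the lists are Cpsf3, a subunit that cleaves pre-mRNA, paired with Itgb1bp1, and Ndufb9, a complex I subunit, paired with Tatdn1, both with gain DARs, and the loss DAR of the mitochondrial protease gene Htra2, paired with Aup1.

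DARs over a TSS were wider than other DARs. Their median width was 224 bp (95% interval of the median 217 to 234 bp), against 184 bp (182 to 186 bp) for the 5210 other DARs and 185 bp (179 to 191 bp) for the 489 promoter DARs upstream of a TSS. Only 8.64% had the smallest width of 150 bp, against 21.4% of other DARs. A wider region is more likely to hold a given base, so the rule itself favours wide regions. Its part in both differences was not tested. Gain DARs, with a median of 227 bp (217 to 240 bp), and loss DARs, with 221 bp (208 to 240 bp), had overlapping intervals and ran up to 892 and 898 bp.

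The widest regions were at genes of unlike roles. The widest gain DARs were at Atp2b1, a plasma membrane calcium pump (892 bp), Odc1, which starts polyamine synthesis (815 bp), Ranbp2, a nuclear pore protein (767 bp), and Pkm, pyruvate kinase (715 bp). They were followed by Phf19 (630 bp), Atosb (623 bp), Trim41 (561 bp), Wdr37 (550 bp), the cyclin-dependent kinase inhibitor gene Cdkn2b (530 bp) and the cytokine gene Il15 (528 bp). The widest loss DARs were at Ccdc34 (898 bp), the mitochondrial glutaredoxin gene Glrx2 (773 bp), the polymerase II phosphatase gene Ssu72 (685 bp) and Zfp493 (669 bp). Sgms2, a sphingomyelin synthase gene (621 bp), Havcr2, which encodes the immune receptor TIM-3 (594 bp), Gcfc2 (589 bp), Lipn (588 bp), the mRNA decapping gene Dcps (518 bp) and Cyren (511 bp) came next. Of these genes 7 in each direction had a CpG-rich DAR.

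Most regions reached further upstream than downstream of the TSS. The median reach was 128 bp upstream (120 to 136 bp) and 94.5 bp downstream (84.0 to 103 bp), and in 61.8% of regions (57.2% to 66.2%) the TSS lay nearer the downstream edge. The middle of the region stood at a median of -16.0 bp from the TSS in gain DARs and -20 bp in loss DARs, with overlapping intervals. Of the 115931 bp in these regions, 74.0% were exonic in M39, 53.8% were in untranslated regions of coding transcripts, 12.5% were intronic and 13.5% were outside genes.

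**Figure D1:**
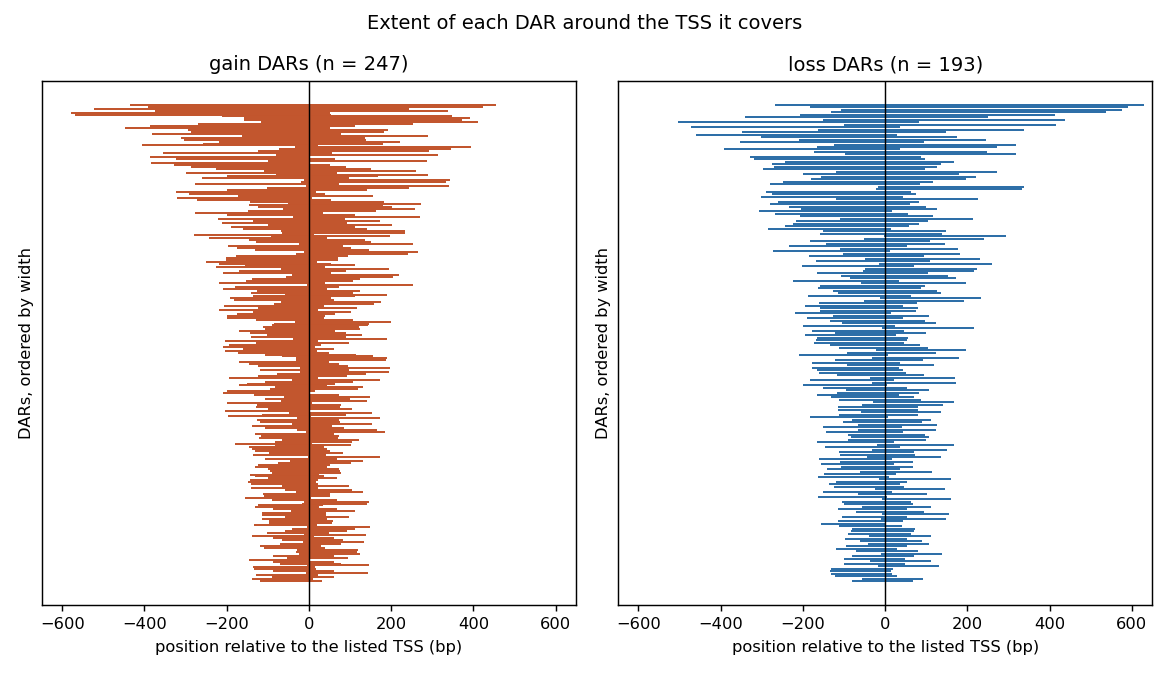
Each line is 1 DAR, drawn from its upstream to its downstream end relative to the listed TSS at 0 (bp, on the strand of the transcript) and ordered by width, with 247 gain DARs on the left and 193 loss DARs on the right. Lines reach further to the left than to the right in 61.8% of the regions, and the widest are 892 bp among gain and 898 bp among loss DARs.

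Gain and loss regions differed most in their CpG content. GC content averaged 63.9% in gain and 61.6% in loss DARs, against 49.7% in other DARs. The median CpG ratio was 0.847 (95% interval 0.818 to 0.888) in gain DARs and 0.709 (0.653 to 0.779) in loss DARs, and the intervals did not overlap. In other DARs it was 0.148 and 0.145. A region was called CpG-rich with a GC content of at least 50% and a CpG ratio of at least 0.6. By this measure 194 of 247 gain DARs (78.5%, 73.0% to 83.2%) and 119 of 193 loss DARs (61.7%, 54.6% to 68.2%) were CpG-rich, again with intervals that did not overlap. In the middle 150 bp the shares were 79.4% (73.9% to 83.9%) and 56.5% (49.4% to 63.3%), beside 48.1% of windows of the same length at all protein-coding canonical TSSs. In 500 bp centred on the TSS the gap narrowed to 76.9% (71.3% to 81.7%) and 66.3% (59.4% to 72.6%), where the intervals overlap.

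**Figure D2:**
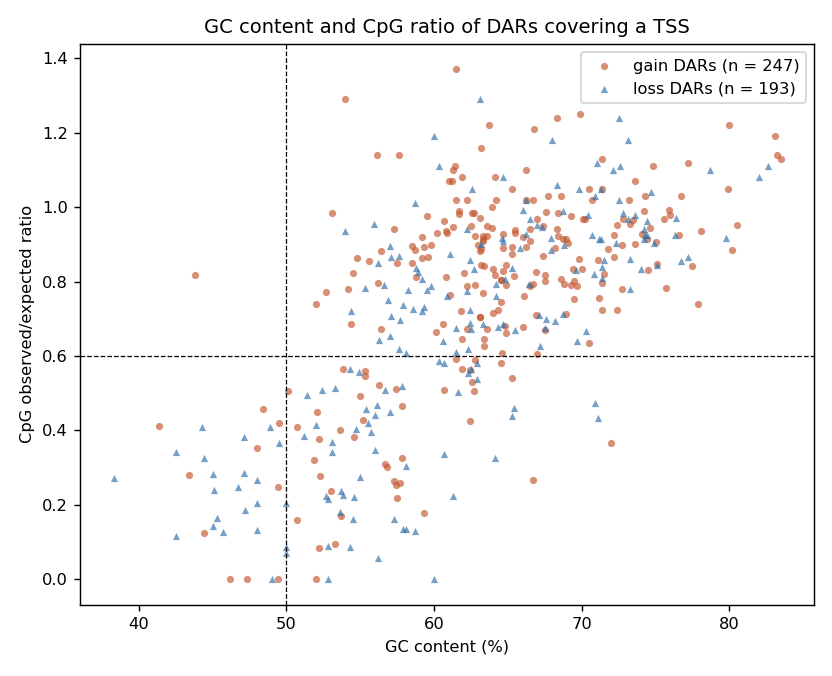
Each point is 1 DAR covering a TSS, with its GC content (%) on the horizontal axis and its CpG observed/expected ratio on the vertical axis, circles for gain and triangles for loss DARs. Dashed lines mark 50% and 0.6, and the upper right field holds 194 of 247 gain and 119 of 193 loss DARs.

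Read the other way, the gain share was higher at higher CpG ratios. When the 440 regions were split by their CpG ratio into 4 groups of 110, gain DARs made up 39.1% (30.5% to 48.4%) of the lowest group, 54.5% (45.2% to 63.5%) of the second, 64.5% (55.3% to 72.9%) of the third and 66.4% (57.1% to 74.5%) of the highest. The split was chosen after the values were seen. The lowest group stood below the 55.9% of all DARs, with an interval that does not hold it. The other DARs within the limits of the lowest group, with a ratio of up to 0.540, did not share this, as 56.0% (54.6% to 57.4%) of these 4848 regions were gain DARs. Among the 489 promoter DARs upstream of a TSS, 64.9% (53.8% to 74.7%) of the CpG-rich ones and 54.1% (49.3% to 58.9%) of the remainder were gain DARs. Those intervals overlap.

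**Figure D3:**
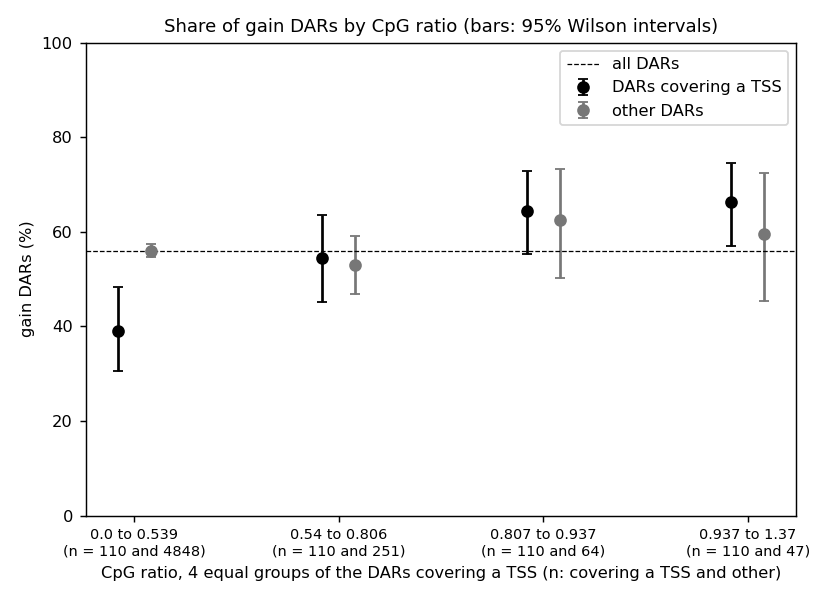
The share of gain DARs (%) is plotted for the 440 DARs covering a TSS in 4 groups of 110 by CpG ratio (black) and for the other DARs cut at the same limits (grey), with 95% Wilson intervals and a dashed line at the 55.9% of all DARs. Black points go from 39.1% in the lowest to 66.4% in the highest group, while grey points lie between 53.0% and 62.5%.

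Around the TSS itself, CpGs were more frequent at gain regions over a span much wider than the DARs. In bins of 50 bp from 500 bp before to 500 bp after the listed TSS, gain regions held more CpGs on average in 20 of 20 bins. The difference was more than 2 standard errors in 13 of them. All bins come from the same regions, so they are not independent of each other. The count peaked at 4.62 CpGs per bin just after the TSS in gain regions and at 3.95 just before it in loss regions.

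The 127 regions that were not CpG-rich, 53 gain and 74 loss, covered a canonical TSS less often than the CpG-rich ones, 52.8% (44.1% to 61.2%) against 73.2% (68.0% to 77.8%). Protein-coding genes made up 79.5% of them (71.7% to 85.6%) against 95.2% (92.2% to 97.1%). The following genes of immune and myeloid cells are examples picked after their values were seen, and such genes were not counted in either class. Among loss DARs they include Clec7a, which encodes the fungal receptor Dectin-1 (211 bp, CpG ratio 0.282), Ptprc, the pan-leukocyte phosphatase CD45 (201 bp, 0.273), Csf2rb, the shared beta chain of the GM-CSF and IL-3 receptors (298 bp, 0.305), and Bst1, a surface enzyme of myeloid and stromal cells (190 bp, 0.134). Among gain DARs they include Nckap1l, the haematopoietic subunit of the WAVE complex (370 bp, 0.237), Il5ra, the IL-5 receptor alpha chain (159 bp, 0.280), Cd300lf, an inhibitory myeloid receptor (152 bp, 0.410), and Cd44, the hyaluronan receptor (325 bp, 0.522). CpG-rich gain DARs covered TSSs of such genes too, among them the kinase gene Lyn (CpG ratio 0.646) and Il4ra, the IL-4 receptor alpha chain (1.02).

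Short motifs of promoter factors were searched as exact strings on both strands. They were the GC box GGGCGG of SP and KLF factors, the CCAAT box CCAAT of NF-Y, the ETS promoter site CCGGAAG, the PU.1 site GAGGAAGT, the NRF1 site (GCGC and TGCGC with 1 base between), the YY1 site AAGATGGCG, the ZNF143 site (ACTACA and TTCC with 1 base between), the cAMP response element TGACGTCA, the E-box CACGTG, the AP-1 site TGANTCA, the interferon-stimulated response element (ISRE, GAAA and GAAA with 2 bases between), the gamma-activated site (GAS) TTCNNNGAA, the forkhead core GTAAACA or ATAAACA, and the TATA box TATAAA. Of these, none is contained in another, though sites may overlap in a sequence, as the GC box and the ETS site do at Mrpl17. A match is a string and not a bound site, and a wider region has more room for one.

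The GC box was the most frequent motif and the one that differed most between directions. It was in 164 gain DARs (66.4%, 60.3% to 72.0%) and in 99 loss DARs (51.3%, 44.3% to 58.3%). Within CpG-rich regions the shares were 75.8% (69.3% to 81.3%) and 69.7% (61.0% to 77.3%), and in the remainder 32.1% (21.1% to 45.5%) and 21.6% (13.8% to 32.3%), so that the intervals overlapped inside each class. In the middle 150 bp the shares were 50.2% (44.0% to 56.4%) and 42.5% (35.7% to 49.5%).

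For every other motif the intervals of gain and loss DARs overlapped over the whole region. The CCAAT box was in 34.4% of gain and 35.2% of loss DARs, the ETS site in 19.8% and 17.1%, the NRF1 site in 13.4% and 9.33%, and the E-box in 12.1% and 9.33%. The YY1 site was in 7.29% and 3.11%, the TATA box in 4.45% and 2.07%, the GAS in 4.45% and 4.66% and the PU.1 site in 3.64% and 3.11%. The AP-1 site, which Fos and Jun dimers bind, was in 3.64% of gain DARs (1.93% to 6.78%) and 8.81% of loss DARs (5.57% to 13.7%). Of its 17 loss regions 14 were not CpG-rich, and in that class the shares were 11.3% (5.29% to 22.6%) and 18.9% (11.6% to 29.3%). The ZNF143 site was in 0.810% and 3.63%, the cAMP response element in 2.02% and 4.66%, the ISRE in 1.62% and 3.11% and the forkhead core in 2.43% and 3.63%.

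Set against all promoters, these regions more often held the GC box and the ETS, NRF1 and YY1 sites and less often the TATA box. All promoters here are the protein-coding canonical TSSs, whether open in these cells or not. Open but unchanged promoters were not listed, which also limits the comparisons of CpG-rich and divergent shares above. In windows of 150 bp, the GC box was in 46.8% of the 440 regions (42.2% to 51.5%) and in 36.8% of the 21770 protein-coding canonical TSSs. The ETS site was in 13.4% (10.5% to 16.9%) against 8.25%, the NRF1 site in 8.18% (5.97% to 11.1%) against 4.86% and the YY1 site in 3.64% (2.25% to 5.82%) against 1.32%. The TATA box was in 2.95% (1.73% to 4.99%) against 6.97%. The intervals of the remaining motifs held the share over all promoters. These were the CCAAT box with 25.5% against 23.8%, the E-box with 5.45% against 5.06%, the AP-1 site with 3.64% against 3.25%, the PU.1 site with 2.27% against 1.87%, the GAS with 2.27% against 3.83% and the forkhead core with 2.05% against 2.52%. They were also the cAMP response element with 1.82% against 2.02%, the ZNF143 site with 1.14% against 0.951% and the ISRE with 0.909% against 1.49%. Other DARs had the GC box in 4.01% and the AP-1 site in 9.02% of their middle 150 bp.

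**Figure D4:**
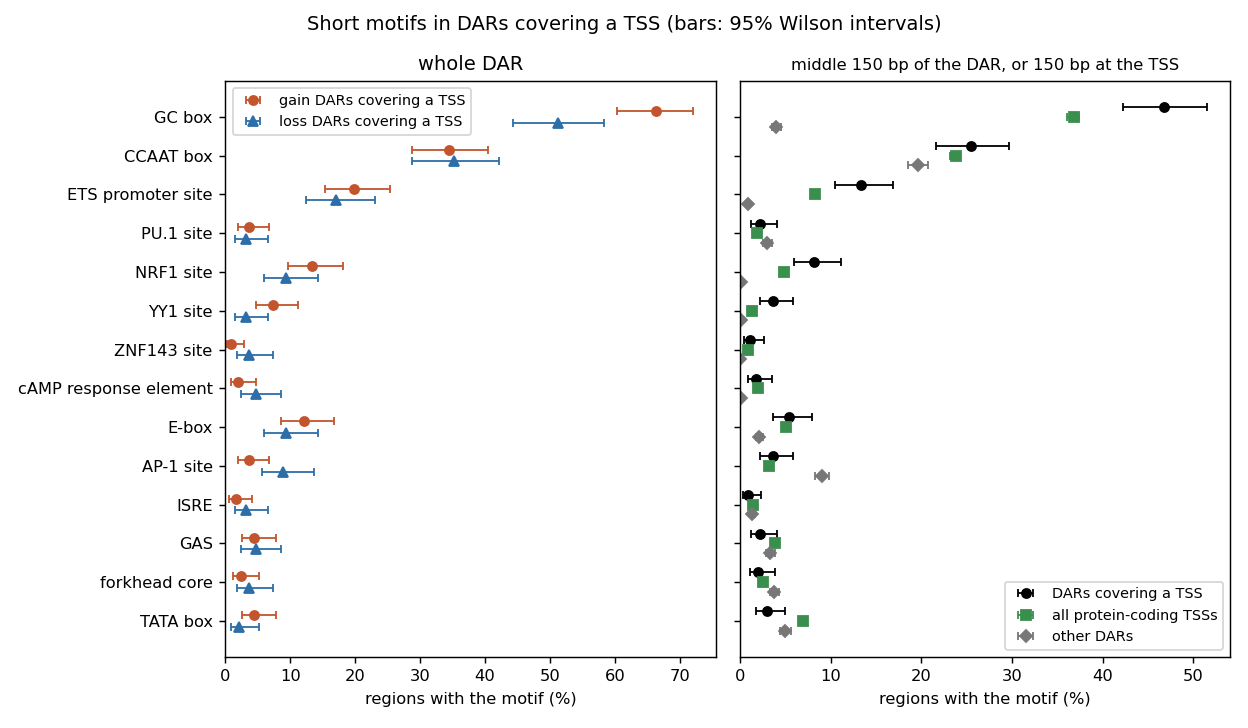
The horizontal axis gives the share of regions with each motif (%), with 95% Wilson intervals. On the left are whole gain and loss DARs covering a TSS, where the GC box stands at 66.4% and 51.3%. On the right are windows of 150 bp in all 440 DARs covering a TSS, at all protein-coding canonical TSSs and in the other DARs, where the GC box stands at 46.8%, 36.8% and 4.01%.

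Motif sites were placed relative to the listed TSS, and only inside the DARs. These reach further upstream than downstream of it, so positions depend on their extent, and no background of positions was computed. The DARs also held a median of 5 TSS positions. The 583 GC boxes had a median position of -32.5 bp (quartiles -88.5 and 21.5 bp). For the 238 CCAAT boxes it was -52.5 bp (quartiles -96.8 and -12.2 bp), with 78.6% of them upstream. The 25 YY1 sites lay mostly downstream, 20 of them, with a median of 26.0 bp, and 12 had their centre 15 to 40 bp past the TSS. The 9 ZNF143 sites all lay upstream, between -1 and -154 bp. Only 4 of the 15 TATA boxes were centred 20 to 40 bp upstream.

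The ZNF143 and YY1 sites are shown because the former all lay upstream and the latter mostly downstream of the TSS. The ZNF143 regions were chosen by the motif, and 7 of the 9 were loss DARs. Each line gives the site in capitals with 8 bases on both sides, in the orientation of the motif. Nop16 (chr13:54737891-54737917, minus strand) and Trub1 (chr19:57441298-57441324, plus strand) had gain DARs. Loss DARs were at Enox2 (chrX:48377230-48377256, minus), Fbf1 (chr11:116059019-116059045, minus), Fbxl9 (chr8:106052914-106052940, minus), Gtse1 (chr15:85743852-85743878, plus), Pemt (chr11:59937390-59937416, minus), Zfp493 (chr13:67927786-67927812, minus) and Zfp661 (chr2:127426658-127426684, plus). Of the YY1 sites, those of the gain DARs at Exosc2 (chr2:31560741-31560765, plus), Mto1 (chr9:78355501-78355525, plus), Glg1 (chr8:111985815-111985839, minus) and Prps1 (chrX:139357366-139357390, plus) are given, all 15 to 40 bp downstream of the TSS.
Nop16 ZNF143 site: ctactaaaACTACATTTCCcaagaatc
Trub1 ZNF143 site: gcctatggACTACAATTCCcagaaggc
Enox2 ZNF143 site: gacctcaaACTACATTTCCcatgaaga
Fbf1 ZNF143 site: ggcgacggACTACAGTTCCtagaatcc
Fbxl9 ZNF143 site: tcggtgggACTACACTTCCcagaaaac
Gtse1 ZNF143 site: gcactctgACTACATTTCCcaggctgc
Pemt ZNF143 site: gtccggaaACTACATTTCCcagacggc
Zfp493 ZNF143 site: tgggcaagACTACATTTCCcacaactc
Zfp661 ZNF143 site: ttgcatgaACTACACTTCCcagaagca
Exosc2 YY1 site: ttggcgccAAGATGGCGttggagat
Mto1 YY1 site: actcggccAAGATGGCGacgcccag
Glg1 YY1 site: gcgaacccAAGATGGCGgtgtgtgg
Prps1 YY1 site: gggaatgtAAGATGGCGgagtagca

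Some of these genes were named after their values were seen. Exosc2 encodes an exosome subunit, Mto1 an enzyme of mitochondrial tRNA modification, Glg1 a Golgi glycoprotein and Prps1 an enzyme of nucleotide synthesis. Nop16 and Trub1 encode proteins of ribosome biogenesis and pseudouridine synthesis, Gtse1 a spindle protein, and Zfp493 and Zfp661 zinc finger proteins.

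Among the regions with the most different motifs besides the GC and CCAAT boxes, 3 are printed to show how unlike they are. Gm17473, a long noncoding RNA gene, had a gain DAR of 225 bp (chr15:42539427-42539651, plus strand) with a forkhead core, an ISRE, a GAS and an E-box and a CpG ratio of 0.458. Abca1, the cholesterol exporter of macrophages, had a gain DAR of 522 bp, and the printed stretch (chr4:53159871-53160164, minus strand) holds 2 GC boxes, an E-box, a forkhead core and a TATA box. Mrpl17, a mitochondrial ribosomal protein gene, had a loss DAR of 477 bp, and its stretch (chr7:105460343-105460608, minus strand) holds 3 GC boxes and 1 ETS site, the first of which overlaps a GC box.
Gm17473: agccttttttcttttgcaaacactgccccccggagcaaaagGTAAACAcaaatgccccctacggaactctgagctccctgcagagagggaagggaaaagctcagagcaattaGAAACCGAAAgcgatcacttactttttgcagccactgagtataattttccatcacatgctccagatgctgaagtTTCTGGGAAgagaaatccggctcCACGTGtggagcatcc
Abca1: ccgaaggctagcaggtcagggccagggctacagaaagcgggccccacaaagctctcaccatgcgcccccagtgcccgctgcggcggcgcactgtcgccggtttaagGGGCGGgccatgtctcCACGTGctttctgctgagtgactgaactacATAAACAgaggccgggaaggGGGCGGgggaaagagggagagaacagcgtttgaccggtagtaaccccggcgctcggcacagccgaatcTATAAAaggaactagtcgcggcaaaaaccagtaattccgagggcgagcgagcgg
Mrpl17: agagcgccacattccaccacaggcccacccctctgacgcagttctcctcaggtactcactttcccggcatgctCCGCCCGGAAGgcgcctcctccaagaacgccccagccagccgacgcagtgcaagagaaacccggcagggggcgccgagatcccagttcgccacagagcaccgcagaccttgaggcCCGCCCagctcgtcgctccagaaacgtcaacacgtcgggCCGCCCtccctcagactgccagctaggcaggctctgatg

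Further regions with many motifs were gain DARs at Ranbp2, Sdf4 and Tomm7, a subunit of the mitochondrial import pore. Loss DARs of this kind included those at Ssu72, with 4 such motifs, Zfp493, Cyp20a1, Kat5, a histone acetyltransferase gene, and Fbf1.

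Gene lists place the regions among pathways, and the counts are read against the 1.03% of protein-coding genes with a gain and the 0.804% with a loss DAR. Over 27 lists, 52 genes had a gain and 37 a loss DAR covering a TSS, and 2 lists, the lysosomal proton pump and microRNA genes, had none. The different genes over all lists were not counted, so these totals are not read as shares. The microRNA and small nucleolar RNA lists were drawn from genes of all types. For them the shares of protein-coding genes are not a like background. No list was tested for enrichment.

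In phosphatidylethanolamine synthesis, which makes a major membrane phospholipid, 3 of 16 genes (Chkb, Pisd and Selenoi) had a gain and 1 (Pemt) a loss DAR, and all 4 regions were CpG-rich. The study named this process and the next 3 from these data, so the counts are not independent evidence. In glycerolipid and phospholipid synthesis 2 of 50 genes had a gain DAR, Pip5k1c, a phosphatidylinositol phosphate kinase gene (389 bp), and Mboat1, an acyltransferase gene (243 bp). In apoptotic signalling 2 of 44 genes, Casp8 (218 bp) and Htra2 (193 bp), had a loss DAR, neither of them CpG-rich nor at a canonical TSS. In catecholamine and dopamine metabolism 2 of 30 genes had a loss DAR, Drd1 and Hprt1, a purine salvage gene (262 bp).

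In the cell cycle and DNA replication list 4 of 73 genes had a gain DAR and 0 a loss DAR, namely Ccne2, encoding cyclin E2 (168 bp), Pold3, a DNA polymerase delta subunit (233 bp), and Rfc2 (217 bp) and Rfc4 (273 bp), subunits of the clamp loader. All 4 regions were CpG-rich, and only that of Rfc2 covered the canonical TSS. In splicing and RNA processing 4 of 94 genes had a gain DAR, the exosome genes Exosc3 (427 bp) and Exosc2 (188 bp), Cpsf3 (214 bp) and the splicing factor gene Srsf1 (164 bp), and 1 had a loss DAR, Hnrnpm (192 bp). The histone list had gain DARs at H1f2 and H4c1, 2 of 75 genes. In DNA repair only Xrcc3, 1 of 79 genes (1.27%), had a gain DAR. Genes of cell division outside these lists also had loss DARs, among them Gtse1, Cetn2 and Ercc6l.

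The lists of protein turnover and synthesis showed no common direction. The proteasome list had 3 loss DARs among 46 genes, at Psmd12 (211 bp), Psmd4 (153 bp) and Psmb6 (150 bp), and 0 gain DARs over a TSS, but 3 of its genes had a gain DAR when all promoter DARs counted. The cytosolic ribosome list had 2 gain DARs (Rps25 at 396 bp and Rpl24 at 217 bp) and 1 loss DAR (Rpl14 at 450 bp) among 105 genes. Translation factors had gain DARs at Eif5a2 and Eif4h (2.27%) and a loss DAR at Eif2b3 (1.14%) among 88 genes. The mitochondrial ribosome had a gain DAR at Mrps2 and a loss DAR at Mrpl17 (1.28% each) among 78 genes. The respiratory chain had gain DARs at Sdhaf4 and Ndufb9 (1.98%) and a loss DAR at Ndufa2 (0.990%) among 101 genes. Ubiquitin ligases and deubiquitinases had 6 gain and 5 loss DARs among 333 genes, including the gain DARs of Trim41 (561 bp), Rnf128 (387 bp) and Usp10 (378 bp) and the loss DARs of Trim26 (397 bp) and Rnf11 (274 bp).

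Rab GTPases and vesicle tethering had 5 gain (3.05%) and 2 loss DARs (1.22%) among 164 genes. The gain DARs included those at Rab8b (452 bp), Rab3il1 (326 bp), Trappc5 (262 bp) and Vps37c (165 bp). The loss DARs were at Rab3ip (348 bp) and Exoc1 (293 bp). Solute carriers had 5 (1.33%) and 3 (0.796%) among 377 genes, beside 1.03% and 0.804% of all protein-coding genes. Slc3a2, the heavy chain of amino acid exchangers (309 bp), and Slc39a14, a zinc and iron importer (272 bp), were among the gain DARs. The citrate carrier gene Slc13a5 (356 bp) was among the loss DARs. Kinesins, dyneins and ciliary transport had 4 (2.76%) and 3 (2.07%) among 145 genes. They were Dynlt1b, Cep85, Ift140 and Cep68 in gain and Dync1li1, Kif9 and Dnah9 in loss DARs.

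Zinc finger genes, many of which silence transposons, had 5 gain (1.04%) and 7 loss DARs (1.46%) among 480 genes. The gain share was near the 1.03% of all protein-coding genes, and the loss share, beside 0.804%, rests on 7 genes. All 5 gain DARs were CpG-rich (Zfp715 at 488 bp and Zfp438 at 233 bp are the widest), against 2 of 7 loss DARs, Zfp644 and Zfp661. Widths of the loss DARs went from 232 to 669 bp, with a median of 438 bp, and the 4 widest, at Zfp493 (669 bp), Zfp1007 (501 bp), Zfp938 (499 bp) and Zfp773 (438 bp), were all without a CpG-rich sequence. These genes have close relatives in the genome, and how reads from near-identical copies were placed was not tested. Their CpG class and width were compared after the values were seen, over 12 regions and with no test.

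In the osteoclast differentiation list 1 of 41 genes (2.44%), Spi1, had a gain DAR and 0 a loss DAR. When all promoter DARs counted, 1 gene of this list had a gain and 2 a loss DAR. Of 20 monocyte and macrophage markers 2 (10.0%) had a gain DAR, Spi1 and Adgre1, which encodes F4/80 (178 bp). Both shares are above the 1.03% of all protein-coding genes and rest on 1 and 2 genes. Acp5, Ctsk, Mmp9, Nfatc1 and Dcstamp had none. Among 18 markers of other blood and stromal cells 1 had a loss DAR, the neutrophil and monocyte gene S100a8 (286 bp), and of the T cell, B cell, erythroid and stromal markers 0 had one. The tables list changed regions alone, so the cell type of the libraries could not be checked from them, and the part of other cells in these results was not tested. In the interferon response list 1 of 50 genes, Gbp2, had a loss DAR and 0 a gain DAR. Over all promoter DARs, 1 gene of this list had a gain and 1 a loss DAR. Outside the list, the gain DARs at Nmi (300 bp) and Il15 (528 bp) each held an ISRE centred at -14 bp from the TSS. Both genes were named after their values were seen. Among DARs covering a TSS, the ISRE was in 4 gain and 6 loss DARs. BAF subunits had a gain DAR at Smarcd2 (221 bp) and a loss DAR at Smarce1 (175 bp) among 29 genes. Med26, a Mediator subunit and 1 of 103 genes in its list (0.971%), had a gain DAR of 340 bp. Snhg4, a small nucleolar RNA host gene and 1 of 167 in its list (0.599%), had a loss DAR of 213 bp.

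A second DAR was listed for 48 of the genes (10.9%). How often other genes with a DAR had a second one was not counted. Of their 52 further DARs, 25 (48.1%) had the direction of the DAR at the TSS. Further DARs of genes with a gain DAR at the TSS were 12 gain and 14 loss DARs, and those with a loss DAR 13 and 13. Over all DARs 55.9% were gain DARs, so the directions showed no clear link, and the pairs named below are examples. Within 1 kb of each other there were 7 such pairs, 4 of them of opposite direction. At Psmd12 a loss DAR over the TSS had a gain DAR 77 bp away in an exon, and at Aldoa, which encodes aldolase A, a loss DAR had a gain DAR 263 bp away in an intron. Gm39469 had a loss DAR with a gain DAR 96 bp away and a further loss DAR 25249 bp away. At the kinase gene Stk35 a gain DAR had a loss DAR 502 bp away. The 3 close pairs of like direction were gain DARs at Glg1, 289 bp apart, and H1f2, 795 bp apart, and loss DARs at the ubiquitin ligase gene Lrsam1, 773 bp apart. Of the 4 genes with 3 DARs, Glg1 had 3 gain DARs, Tacr1, the substance P receptor gene, had a gain DAR at the TSS and 2 loss DARs in an intron, and Tcf7l2, a Wnt effector gene, had loss DARs at the TSS and upstream and a gain DAR in an intron.

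By chromosome, the gain share of these regions spread widely, with few regions on each. Chromosome 1 had 5 gain and 17 loss DARs over a TSS (22.7% gain, 10.1% to 43.4%), while 59.2% (54.4% to 64.0%) of its other DARs were gain DARs, and these intervals did not overlap. On chromosome 16 there were 15 gain and 3 loss DARs (83.3%, 60.8% to 94.2%) beside 57.0% (50.4% to 63.3%), and on chromosome 8 there were 12 and 3 (80.0%, 54.8% to 93.0%) beside 53.4%. These 3 were picked out of 20 chromosomes after their values were seen.

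Chromosome X stood apart from the autosomes. Of its 24 DARs 13 covered a TSS (54.2%, 35.1% to 72.1%), against 427 of 5620 on autosomes (7.60%, 6.93% to 8.32%). Per 100 protein-coding genes, X had 1.32 DARs over a TSS (exact Poisson interval 0.705 to 2.26) and the autosomes 2.07 (1.88 to 2.28), intervals that overlap. Other DARs numbered 0.0649 per Mb on X (0.0324 to 0.116) and 2.11 per Mb on autosomes (2.05 to 2.17). The regions on X, named after their values were seen, were gain DARs at Dkc1, a telomerase and pseudouridine synthase gene, the histone methyltransferase gene Suv39h1, Prps1, Prkx, Rnf128, Tspyl2, Nap1l2 and Bclaf3, and loss DARs at Hprt1, the RNA helicase gene Ddx3x, Cetn2, Enox2 and Ercc6l. Of these 13 regions 11 were CpG-rich.

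**Figure D5:**
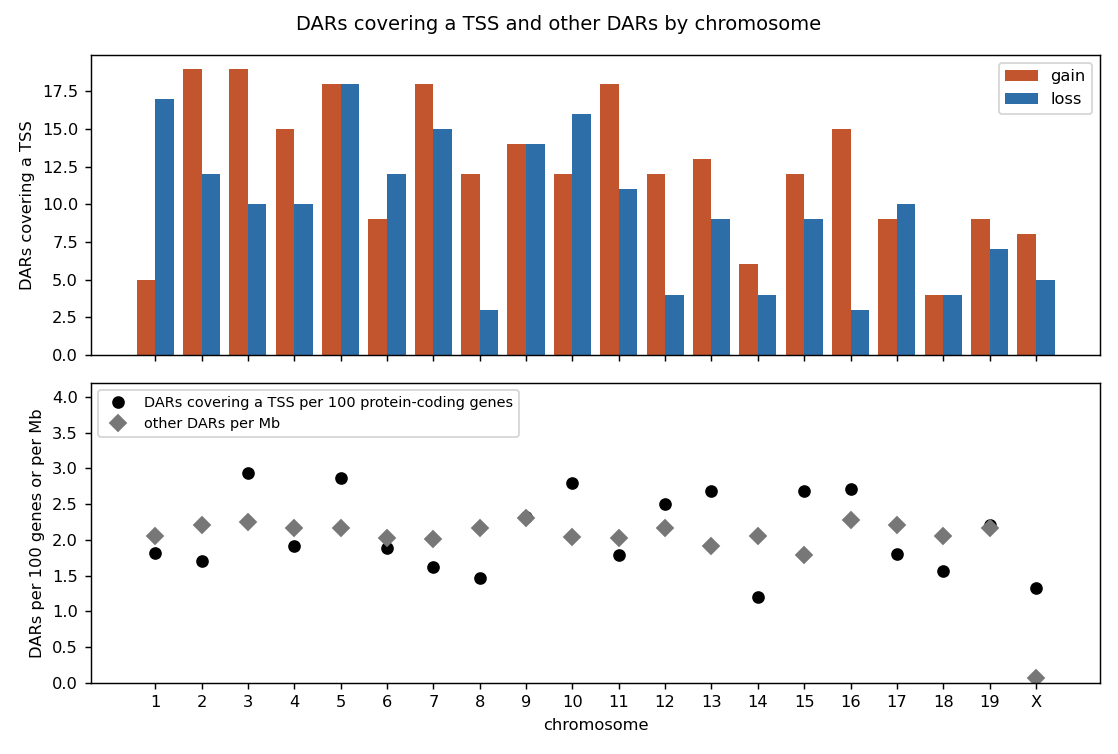
The upper panel counts gain and loss DARs covering a TSS on each chromosome, with 5 and 17 on chromosome 1. The lower panel shows DARs covering a TSS per 100 protein-coding genes (black circles) and other DARs per Mb (grey diamonds), which are 1.32 and 0.0649 on X.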

How the data were processed

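ATAC-seq was performed on BMDMs with 1 library for MR + vector and 1 for MR + iBRD9. According to the methods and the submitters' processing notes, the authors trimmed reads (cutadapt 1.9.1), aligned them to GRCm39 (Bowtie2 2.2.6), removed duplicates and downsampled mapped reads to a common number (Picard 1.126), called peaks (MACS3), merged them and listed regions past a fold change limit as DARs. The authors deposited the DARs as coordinates, widths and distances, with no counts, signal or statistics in the tables, so the depth behind a region is unknown and no test was possible. Starts are 1-based, and X and Y are named 20 and 21.

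DARs were selected by class and distance. Sequence came from GRCm39 and genes from GENCODE M39. CpG content, exact motif matches, reach around the TSS and divergent genes were computed in Python 3.11.15 (pysam 0.24.0 for sequence, pandas 2.3.3 and numpy 2.4.6 for tables, scipy 1.17.1 for intervals) and drawn with matplotlib 3.10.9. Shares carry 95% Wilson intervals and medians binomial intervals, which cover counting error alone. The measures were checked on simulated data.

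The members and lists were chosen with earlier results of these data known. Named genes are list members, the 10 widest DARs per direction, genes with further DARs, DARs with the most motifs and those next to the limit of the rule, and others are said to be named after their values were seen. Of 547 symbols in the 12 curated lists, 544 were in M39, and 15 lists were made from symbol prefixes. Alternatives changed the regions counted, the windows, the CpG limits and the TSS used. Some genes are not reported here.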

Additional observations from a re-analysis of the deposited data

How the results depend on the processing

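No paired analysis was possible because MR + vector and MR + iBRD9 are 1 library each. The gain share and the median widths stayed within their intervals under each alternative run for them. Over all results, 66 of 89 alternative values stayed within the interval of the main value or, for counts of genes, within 1.5 times of it. Wider windows lowered the mean GC content, to 62.3% of gain and 60.2% of loss DARs in 500 bp around the TSS. With the canonical TSS covered, 83.5% of gain and 69.0% of loss DARs were CpG-rich. Limits of 55% GC and a ratio of 0.65, chosen after the data were seen as was the canonical subset, gave 72.9% and 56.5%. Divergent pairs of protein-coding genes alone made up 13.0% and 9.33%. Measured from the canonical TSS, the middle lay at -7.50 bp in gain and -4.00 bp in loss DARs. Counting every promoter DAR gave 59 list genes with a loss DAR instead of 37 and 78 with a gain DAR instead of 52. In the middle 150 bp the GC box was in 50.2% of gain and 42.5% of loss DARs, and 11 of 44 values of the other motifs moved beyond their intervals. In 300 bp around the TSS, the difference of gain minus loss DARs turned from 0.535 to -0.501 percentage points for the PU.1 site and from 2.82 to -0.420 for the E-box. The cause of these changes was not tested. With no counts in the tables, depth limits every statement on single regions, 2 libraries give no measure of replicate error, and an unlisted promoter may be unchanged or uncovered.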

Other observations

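The numbers that the authors gave the listed DARs run chromosome by chromosome. The full set that they number was not available, so a span of numbers is not a count of compared regions. On chromosome X the numbers of the DARs run from 12347 to 12503, a span of 157, while the smallest span of an autosome is 516 on chromosome 19 and the largest 1692 on chromosome 1. Whether few regions of X were in the compared set was not tested. Of its 24 DARs, 13 covered a TSS. Why the span of X is short was not tested either.

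A TSS of M39 also lay inside 183 DARs outside the 440 regions, which the authors' annotation placed elsewhere. With these included, and the few regions that hold no M39 start left out, 56.4% of 619 DARs were gain DARs.

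The regions held a median of 5 different TSS positions of M39, with up to 40 at Sec61a2, a translocon gene with a loss DAR, and up to 38 at Zdhhc16, an acyltransferase gene with a gain DAR. TSSs of more than 1 gene lay in 128 regions, and 84 regions held 1 TSS position. Both genes were named after their values were seen.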
